A study of Mus musculus with 24 samples.

Results

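Changes of gene expression in sorted hepatic endothelial cells (ECs) were set against those in whole livers of Gdf2/Bmp10 HSC-KO mice, gene by gene. The comparison used 12 of the 24 libraries of the series, 3 in each of 4 groups, which were control ECs, HSC-KO ECs, control livers and HSC-KO livers. Its quantity was the log2 fold change in ECs minus the log2 fold change in livers, called here the log2 difference. It was estimated for 18875 genes whose symbol occurred once in both count tables, and 14343 of them had enough counts to be tested in ECs and in livers. The question was which endothelial changes can be seen in tissue, which are weakened or opposed there, and which tissue changes are missing from ECs.

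Gdf2/Bmp10 HSC-KO mice carry Gdf2 fl/fl and Bmp10 fl/fl alleles and Lrat-Cre, which deletes both ligand genes in hepatic stellate cells (HSCs), and other cell types keep intact alleles. All mice are of C57BL/6 strain, and the labels call the comparison group control mice, with WT in the sample descriptions, and do not name its alleles. ECs were sorted as CD45-CD31+ cells from mice aged 8 to 10 weeks, and liver tissue came from mice aged 12 weeks. RNA was isolated with an RNeasy kit from ECs and with TRIzol from livers. Age, RNA isolation and deposited table changed together with the tissue and cannot be told apart from it. Nothing in the labels ties an EC library to the mouse of a liver library.

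GDF2 (also called BMP9) and BMP10 are circulating ligands of the TGF-beta family that bind the receptor ALK1 (gene Acvrl1) with the co-receptor endoglin on ECs and signal through SMAD1, SMAD5 and SMAD9. Liver sinusoidal ECs are fenestrated scavenger cells without a continuous basement membrane, and they send Wnt ligands, R-spondin 3 and BMPs to neighbouring hepatocytes. Pericentral hepatocytes, which lie around the central vein, respond to these Wnt signals with genes such as Glul. A whole-liver library holds the RNA of all these cells together, so fewer cells of a type and less RNA per cell cannot be told apart in it.

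Total counts were 66694659 to 87879751 per EC library and 73941995 to 104087482 per liver library, so that 3 counts, taken as the detection limit, corresponded to 0.0318 to 0.0485 CPM (counts relative to the scaled library size) in ECs and 0.0272 to 0.0418 CPM in livers. CPM values were scaled within each table, and levels set across the tables rest on separate normalisations. Replicate 1 of the HSC-KO ECs stood apart: Dnase1l3, a nuclease gene of sinusoidal ECs, took 14, 20.4 and 18.5% of all counts in control ECs and 5.57, 0.276 and 0.127% in HSC-KO ECs, and this library was the highest of the 3 HSC-KO EC libraries in 705 of 962 genes that fell in ECs. By Xist and Ddx3y, all groups but the control livers mixed sexes: ECs of control replicate 1 and of HSC-KO replicates 1 and 3 expressed Xist, the other 3 EC libraries Ddx3y, and of the livers only HSC-KO replicate 3 expressed Ddx3y. The labelled tissues were checked against marker genes. In control mice the 12 pan-endothelial genes were at a median of 31.9 times the liver level in ECs, from 2.86 for Sox18 to 77.7 for Egfl7, and Alb, the albumin gene of hepatocytes, was at 28.3 to 75.6 CPM in ECs against 79912 to 148388 CPM in livers.

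A gene was called a differentially expressed gene (DEG) at a Benjamini-Hochberg (BH) adjusted p below 0.05 in edgeR's quasi-likelihood test and a log2 fold change above 1 in size. ECs had 2198 DEGs among 16053 tested genes (13.7%), with 1233 (7.68%) at a higher and 965 (6.01%) at a lower level in HSC-KO mice. Livers had 425 among 17118 (2.48%), with 177 (1.03%) at a higher and 248 (1.45%) at a lower level. The log2 difference passed the same thresholds for 1232 of 18875 genes (6.53%), 732 above 0 (3.88%) and 500 below (2.65%), and 4029 had an unadjusted p below 0.05. With libraries scaled by their total counts alone, the median log2 difference of all genes moved from 0.06 to 0.42 and the split became 1391 above of 1714. Of the 1232 genes, 142 had a group with at most 3 counts in each library, where the fitted size of the difference depends on edgeR's prior count, and 221 were DEGs of neither tissue.

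Few EC changes reached significance in tissue, whereas most tissue changes that could be tested in ECs were found there. Of 1930 EC DEGs tested in livers, 223 (11.6%) were liver DEGs in the same direction, 119 higher and 104 lower. The same 223 genes made up 65.0% of the 343 liver DEGs tested in ECs, and the share was 76.8% of those that rose and 55.3% of those that fell. Another 13 genes were DEGs of both in opposite directions. A further 906 EC DEGs were not liver DEGs and had a called log2 difference, and 1048 were EC DEGs without a called difference, of which nothing can be said on whether ECs and livers differed. Among liver DEGs that were no EC DEGs, 38 had a called difference and 149 did not. The signs of the fold changes were the same in 69.8% of the EC DEGs tested in livers and in 87.5% of the liver DEGs tested in ECs, beside 54.8% of all genes tested in both. The EC and the liver libraries enter their own DEG call and the log2 difference alike, so these calls are not independent of each other.

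**Figure D1:**
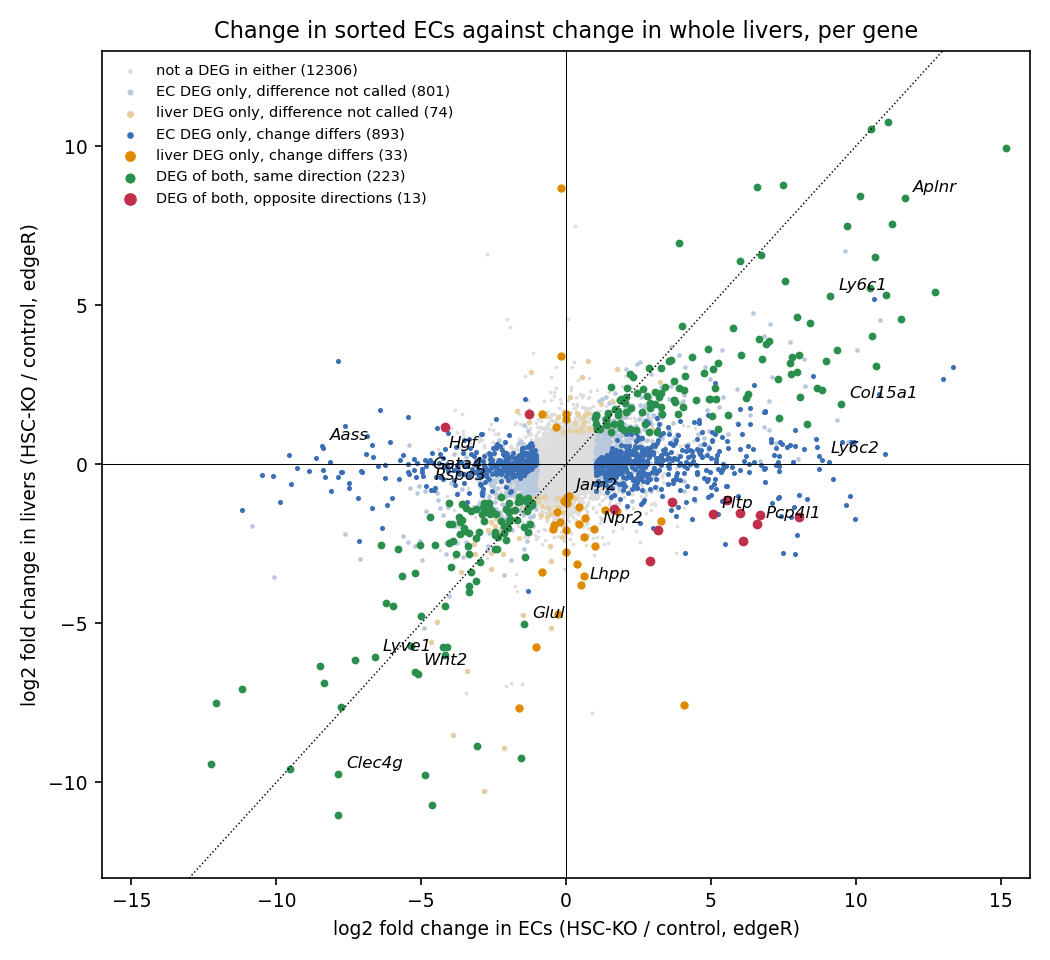
Each point is a gene tested in both tables, placed by its log2 fold change (HSC-KO over control) in ECs on the x axis and in livers on the y axis, and the dotted line marks equal change. Colours give the classes of the legend with their numbers of genes: the 223 DEGs of both in the same direction lie around or below the size of the EC change, and the 893 EC DEGs with a called difference lie along the horizontal axis; fitted values of genes without counts in a group depend on the prior count.

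Both deleted ligands were lower in tissue. Gdf2 (GRCm38 chr14:33941039-33947198) was at 18.4, 9.38 and 22.5 CPM in control livers and at 3.85, 2.12 and 2.63 CPM in HSC-KO livers (log2 fold change -2.55, SE 0.37), and the groups did not overlap. Bmp10 (chr6:87428994-87437677) fell from 3.28, 2.72 and 1.99 to 0.0938, 0.262 and 0.111 CPM (log2 fold change -4.07, SE 0.49). In sorted control ECs, which are not the deleted cells, Gdf2 was at 2.94, 1.75 and 1.03 CPM and Bmp10 at 0.0647 to 0.183 CPM, and HSC-KO ECs had 0, 0.0698 and 0 CPM of Gdf2 and no count of Bmp10. Gdf2 fell in ECs by 6.39 on the log2 scale (SE 1.14), and its log2 difference of -3.82 was lost in 10 of the 12 fits that left out 1 library. With 1 library left out, the EC log2 fold change of Gdf2 ranged from -10.23 to -5.76 and its difference from -7.45 to -3.2. Its liver call was lost without control replicate 1 or 3. Bmp10 had too few counts in ECs to be tested.

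The ALK1 pathway list held 18 genes. Of 16 tested in ECs 4 rose and 5 fell, where 13.7% of all genes were called, and of 18 tested in livers 1 fell, where 2.48% were called. Acvrl1, the ALK1 receptor gene (chr15:101128522-101145336), was at 62.1, 56.1 and 63.4 CPM in control ECs and 235, 159 and 208 CPM in HSC-KO ECs. In livers it was at 4.55, 5.03 and 5.83 CPM in control mice and 7.28, 6.93 and 6.64 CPM in HSC-KO mice. The HSC-KO libraries were all higher than the control libraries in both tissues, but the change of 1.73 in ECs (SE 0.17) was a DEG and that of 0.44 in livers (SE 0.17) was not, and the log2 difference of 1.33 was called (SE 0.21, edgeR BH-adjusted p = 0.0031). Smad6, an inhibitory SMAD induced by the pathway, was the member that fell in both, by 3.01 in ECs (SE 0.27) and 2.14 in livers (SE 0.37), although the liver call was lost without any 1 of the 3 control libraries or HSC-KO replicate 1. Smad7, the other inhibitory SMAD, fell by 1.80 in ECs and had a liver log2 fold change of 0.07, with a called difference of -1.83 that was lost in 9 of 12 fits without 1 library.

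Id2, a target gene of BMP signals that encodes an inhibitor of basic helix-loop-helix factors, fell in ECs alone. It was at 48.9, 62.3 and 31.9 CPM in control ECs and at 14.3, 5.93 and 9.26 CPM in HSC-KO ECs. In livers its control values of 77.3, 62.2 and 33.6 CPM overlapped with the HSC-KO values of 58.6, 114 and 83.3 CPM. The log2 difference was -2.80 (SE 0.56, edgeR BH-adjusted p = 0.011). Id1 and Id3, relatives with the same function, were DEGs of neither tissue, with log2 fold changes of 0.17 and -0.87 in ECs and 0.01 and 0.20 in livers. Smad9 and Atoh8 also had a called difference, of -5.49 and 1.66, and both of these lost their EC call and their called difference in several fits without 1 library.

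Promoters of 14 genes named in this comparison were looked for among RefSeq promoters (GRCm38.p6), and 10 were found, each taken as the 250 bases before its start. They were searched for GGCGCC, the core of BMP-responsive elements bound by SMAD1 and SMAD5, which reads the same on both strands. The motif was in the windows of Id2 and Wnt2 and not in the other 8, those of Wnt9b, Bmp6, Hgf, Smad6, Cd34, Apln, Emcn and Glul. All 250 bases of the Bmp6 window lie in exons annotated by GENCODE and inside the Bmp6 gene. All 250 bases of the Glul window also lie in annotated exons, but outside the Glul gene. A pair with the motif and a pair without it are shown, each holding 1 gene that fell in ECs alone (Id2, Hgf) and 1 that fell in both tissues (Wnt2, Smad6). Capitals mark the motif. GENCODE places the starts of Id2 and Wnt2 further upstream than RefSeq, so that 250 and 140 bases of these windows lie inside the gene by its annotation, and the bases from the first annotated exon on are not printed. The printed bases are chr12:25096254-25096342 on the minus strand for Id2, which are intronic in the longest Id2 transcript, chr6:18030586-18030695 on the minus strand for Wnt2, chr5:16553245-16553494 on the plus strand for Hgf and chr9:64022060-64022309 on the minus strand for Smad6.
Id2: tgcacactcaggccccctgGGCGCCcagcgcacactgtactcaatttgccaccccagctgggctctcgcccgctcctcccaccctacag
Wnt2: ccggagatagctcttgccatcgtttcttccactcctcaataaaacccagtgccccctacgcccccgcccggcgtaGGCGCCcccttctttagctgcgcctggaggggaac
Hgf: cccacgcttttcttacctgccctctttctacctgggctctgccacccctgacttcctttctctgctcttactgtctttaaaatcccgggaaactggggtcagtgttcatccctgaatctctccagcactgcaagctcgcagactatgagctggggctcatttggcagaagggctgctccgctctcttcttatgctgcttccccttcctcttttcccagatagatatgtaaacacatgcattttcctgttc
Smad6: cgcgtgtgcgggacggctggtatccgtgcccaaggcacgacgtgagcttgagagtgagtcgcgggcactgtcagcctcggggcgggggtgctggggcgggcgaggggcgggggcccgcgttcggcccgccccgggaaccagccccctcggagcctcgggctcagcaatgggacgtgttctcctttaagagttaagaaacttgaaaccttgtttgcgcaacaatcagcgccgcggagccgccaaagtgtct
The motif stands 1 time in each of the first 2 windows, 231 bases before the RefSeq start in Id2 and 175 bases before it in Wnt2. GGCGCC occurred in 9.5% of all 27025 promoters and in 16.9% of the 9928 found for the genes tested in both tables. It occurred in 11.2% of the 80 promoters found for DEGs lower in both, in 15.7% of 89 for DEGs higher in both, and in 16.4% of 274 and 15.5% of 380 for the EC DEGs, lower and higher, that had a called difference. These shares describe the letters of the windows and say nothing on binding.

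Sinusoidal EC genes fell in ECs and in livers. Of 18 sinusoidal genes, 15 fell in ECs and 17 fell in livers, with median log2 fold changes of -3.38 and -3.05, and 14 fell in both. Over all tested genes the medians were 0.005 and -0.01, and 6.01% in ECs and 1.45% in livers were called lower. Lyve1, a hyaluronan receptor (chr7:110850607-110863239), was at 621, 727 and 691 CPM in control ECs and at 9.16, 5.21 and 6.48 CPM in HSC-KO ECs. In livers it was at 12.7, 14.4 and 10.8 CPM in control mice and at 0.174, 0.309 and 0.0697 CPM in HSC-KO mice. Neither pair of groups overlapped, and the log2 fold changes of -6.61 (SE 0.27) and -6.06 (SE 0.45) gave a log2 difference of -0.51 (SE 0.48) that was not called. Clec4g, a lectin gene, fell by 7.88 in ECs (SE 1.39) and 9.73 in livers (SE 0.62). Flt4, which encodes the receptor VEGFR3, fell by 1.68 in ECs (SE 0.27) and 1.76 in livers (SE 0.21). Stab1, a scavenger receptor, and Kit, the receptor of stem cell factor, fell by 2.67 and 3.61 in ECs and by 1.21 and 1.76 in livers, with differences that were not called (-1.42, SE 0.40, and -1.81, SE 0.50) and liver calls lost in 4 of 6 fits each. Mrc1, the mannose receptor, fell by 3.34 and 2.81, and Maf, a transcription factor of sinusoidal ECs, by 1.96 and 1.23, but the EC call of Maf was lost without any 1 of the control replicates or HSC-KO replicate 2.

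Replicate 1 of the HSC-KO ECs bore on this list. It was the highest of the 3 HSC-KO libraries in 16 of the 18 sinusoidal genes, and 3 genes that fell in livers were not called in ECs. Stab2, a scavenger receptor of sinusoidal ECs, was at 2401, 2155 and 2462 CPM in control ECs and at 952, 117 and 100.3 CPM in HSC-KO ECs, where its log2 fold change of -2.58 was not called (SE 0.84, edgeR BH-adjusted p = 0.071). It fell in livers from 86.0, 115 and 116 to 12.7, 9.62 and 9.95 CPM, by 3.30 on the log2 scale (SE 0.18). Fcgr2b and Dnase1l3 had EC log2 fold changes of -3.62 and -3.41, also not called, and fell by 3.39 and 6.49 in livers. Without this library 18 of 18 sinusoidal genes fell in ECs, 17 fell in both, and the number with a called log2 difference below 0 went from 1 to 9.

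The 1 sinusoidal gene with a called difference was Gata4, a transcription factor needed for sinusoidal differentiation (chr14:63198922-63271692). Control ECs had 335, 346 and 341 CPM and HSC-KO ECs 25.3, 4.22 and 4.16 CPM (log2 fold change -4.92, SE 0.77). Control livers had 25.3, 22.9 and 20.7 CPM and HSC-KO livers 16, 16.8 and 21 CPM (log2 fold change -0.36, SE 0.15, edgeR BH-adjusted p = 0.36). The liver groups overlapped, and the log2 difference was -4.52 (SE 0.80, edgeR BH-adjusted p = 0.0055). Stellate cells are also known to express Gata4.

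Continuous EC genes, which mark capillaries of other organs, rose together in ECs and in livers, and the rise was larger in ECs for 4 of them. Of 13 tested, 12 rose in ECs and 12 in livers, with medians of 4.36 and 3.24, and 5 had a called difference above 0. Among all genes, 7.68%, 1.03% and 3.88% did so. Apln, the apelin gene (chrX:48025146-48034853), was at 0.806, 0.647 and 0.625 CPM in control ECs and at 55.9, 89.4 and 77.1 CPM in HSC-KO ECs. In livers it went from 0.109, 0.104 and 0.0887 CPM to 10.9, 11.4 and 7.15 CPM. The log2 fold changes of 6.74 (SE 0.26) and 6.58 (SE 0.31) differed by 0.19 (SE 0.39). The apelin receptor gene Aplnr rose by 11.68 in ECs and 8.37 in livers, Emcn (endomucin) by 3.55 and 3.24, and Pdgfb, which encodes a growth factor for mural and stellate cells, by 4.11 and 2.79. Cd34, a sialomucin gene, rose by 4.89 in ECs and by 3.63 in livers. The number of members called in livers fell to 7, 6 and 7 without control replicate 2, control replicate 3 or HSC-KO replicate 1.

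Ly6c1, Col15a1, Igfbp3 and Plvap rose in both with a called difference. Ly6c1, a surface antigen gene, rose by 9.11 in ECs (SE 0.58) and by 5.28 in livers (SE 0.20), a log2 difference of 3.87 (SE 0.52). Col15a1, a basement membrane collagen gene, was at 0, 0.631 and 0 CPM in control ECs and 82.5, 158 and 174 CPM in HSC-KO ECs. Control livers already had 15.4, 9.80 and 7.86 CPM of Col15a1, more than any control EC library, and HSC-KO livers had 40.7, 53.0 and 30.2 CPM. Its log2 fold changes were 9.49 and 1.90. Over the fits without 1 library its EC value ranged from 8.83 to 16.45 and its log2 difference from 6.96 to 14.36. Igfbp3, which binds insulin-like growth factors, rose by 8.07 and 2.11, with 16.6 to 20.7 CPM in control livers against 0.340 to 2.59 CPM in control ECs. The liver calls of Col15a1, Igfbp3 and Plvap were each lost in 2 to 4 of the fits without 1 liver library.

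Vwf, the von Willebrand factor gene, was the member of this list that went the other way in tissue. It was at 88.0, 84.9 and 80.1 CPM in control ECs and 178, 73.4 and 90.0 CPM in HSC-KO ECs, with overlapping groups. In livers it fell from 14.9, 13 and 15.9 CPM to 2.33, 3.39 and 6.14 CPM (log2 fold change -1.88, SE 0.34), and the log2 difference was 2.35 (SE 0.51, edgeR BH-adjusted p = 0.016). The fall in livers was lost in 5 of the 6 fits without 1 liver library, all but that without HSC-KO replicate 3.

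Among DEGs of both whose level in an EC group averaged 3 or more as log2 CPM, those with the greatest fitted log2 fold change in the less changed tissue were Aplnr, Rgcc, Kcna5, Lrrc3b and Kank4 among those that rose. The liver values of Kcna5, Lrrc3b and Kank4 depend on the prior count, and so does this order. Rgcc, a regulator of the cell cycle, rose by 11.26 in ECs and 7.54 in livers. Kcna5, a potassium channel gene, and Lrrc3b were at or under the detection limit in both control groups, and their HSC-KO levels were at least 545-fold and at least 1421-fold higher in ECs and at least 65.8-fold and at least 43.6-fold higher in livers, against 3 counts per library. Kank4 rose by 7.47 in ECs and was at least 19.5-fold higher in livers, a liver call that was lost in 4 fits without 1 library. Those that fell were Lyve1, Clec4g, Oit3, Wnt2 and the Kupffer cell gene Cd5l. Over the 119 genes that rose in both, the median log2 fold change was 4.04 in ECs and 2.35 in livers (4 and 2.35 with genes at the detection limit set to their bound), and 95 changed more in ECs. For the 104 genes that fell in both, the medians were -3.20 (-3.11 with bounds) and -2.16, and 71 changed more in ECs. The difference was called for 54 of the 223, of which 52 had the larger change in ECs.

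Angiocrine genes, whose products signal from ECs to neighbouring cells, fell together in ECs but only in part in tissue. Of 8 tested, 7 fell in ECs with a list median of -4.60, 4 fell in livers with a median of -1.24, and 4 had a called difference below 0. The same shares of all genes were 6.01%, 1.45% and 2.65%. Wnt2 (chr6:17988940-18030585) was at 507, 379 and 679 CPM in control ECs and 16.8, 13.5 and 11.7 CPM in HSC-KO ECs. In livers it fell from 4.87, 6.06 and 4.89 CPM to 0.107, 0.0595 and 0 CPM. Wnt2 thus fell by 5.22 in ECs (SE 0.28) and 6.52 in livers (SE 0.67), and the difference was not called. Bmp2, which drives hepcidin expression in hepatocytes, had log2 fold changes of -5.01 in ECs (SE 0.81) and -4.77 in livers (SE 0.38), and fell in both. Wnt9b fell by 4.18 and 5.99, with its liver call lost in 5 of 6 fits without 1 liver library. Its liver log2 fold change ranged from -10.49 to -5.38 over these fits. Bmp6, the partner of Bmp2 in iron regulation, fell by 3.68 in ECs (SE 0.19) and by 1.81 in livers (SE 0.27), and its log2 difference of -1.83 was called (SE 0.30, edgeR BH-adjusted p = 0.0035). The liver call of Bmp6 was lost without control replicate 2, control replicate 3 or HSC-KO replicate 1, and without each of these libraries 2 of the 8 genes fell in livers.

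Rspo3, Hgf and Dkk3 fell in ECs without a liver call. Rspo3, the R-spondin that strengthens Wnt signals (chr10:29452416-29535867), was at 115, 59.7 and 112 CPM in control ECs and 3.62, 4.10 and 2.30 CPM in HSC-KO ECs. Its liver levels were 5.35, 4.13 and 4.62 CPM and 3.36, 2.70 and 2.73 CPM, which did not overlap but gave a log2 fold change of -0.68 that was not called (SE 0.21, edgeR BH-adjusted p = 0.20). The log2 difference was -4.12 (SE 0.39, edgeR BH-adjusted p = 0.00011). Hgf, the hepatocyte growth factor gene (chr5:16553495-16620152), was at 15.2, 18.5 and 27.3 CPM in control ECs and at 0.934, 0.712 and 1.33 CPM in HSC-KO ECs. Livers had 4.33, 8.43 and 10.4 CPM in control mice and 6.43, 9.03 and 13.6 CPM in HSC-KO mice, with overlapping groups. Its log2 fold change was -4.35 in ECs (SE 0.33) and 0.33 in livers (SE 0.37). Stellate cells are known to express Hgf. Dkk3, which encodes a member of the Dickkopf family, fell by 7.49 in ECs, had a log2 fold change of -0.59 in livers and a log2 difference of -6.86 (SE 0.46).

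**Figure D2:**
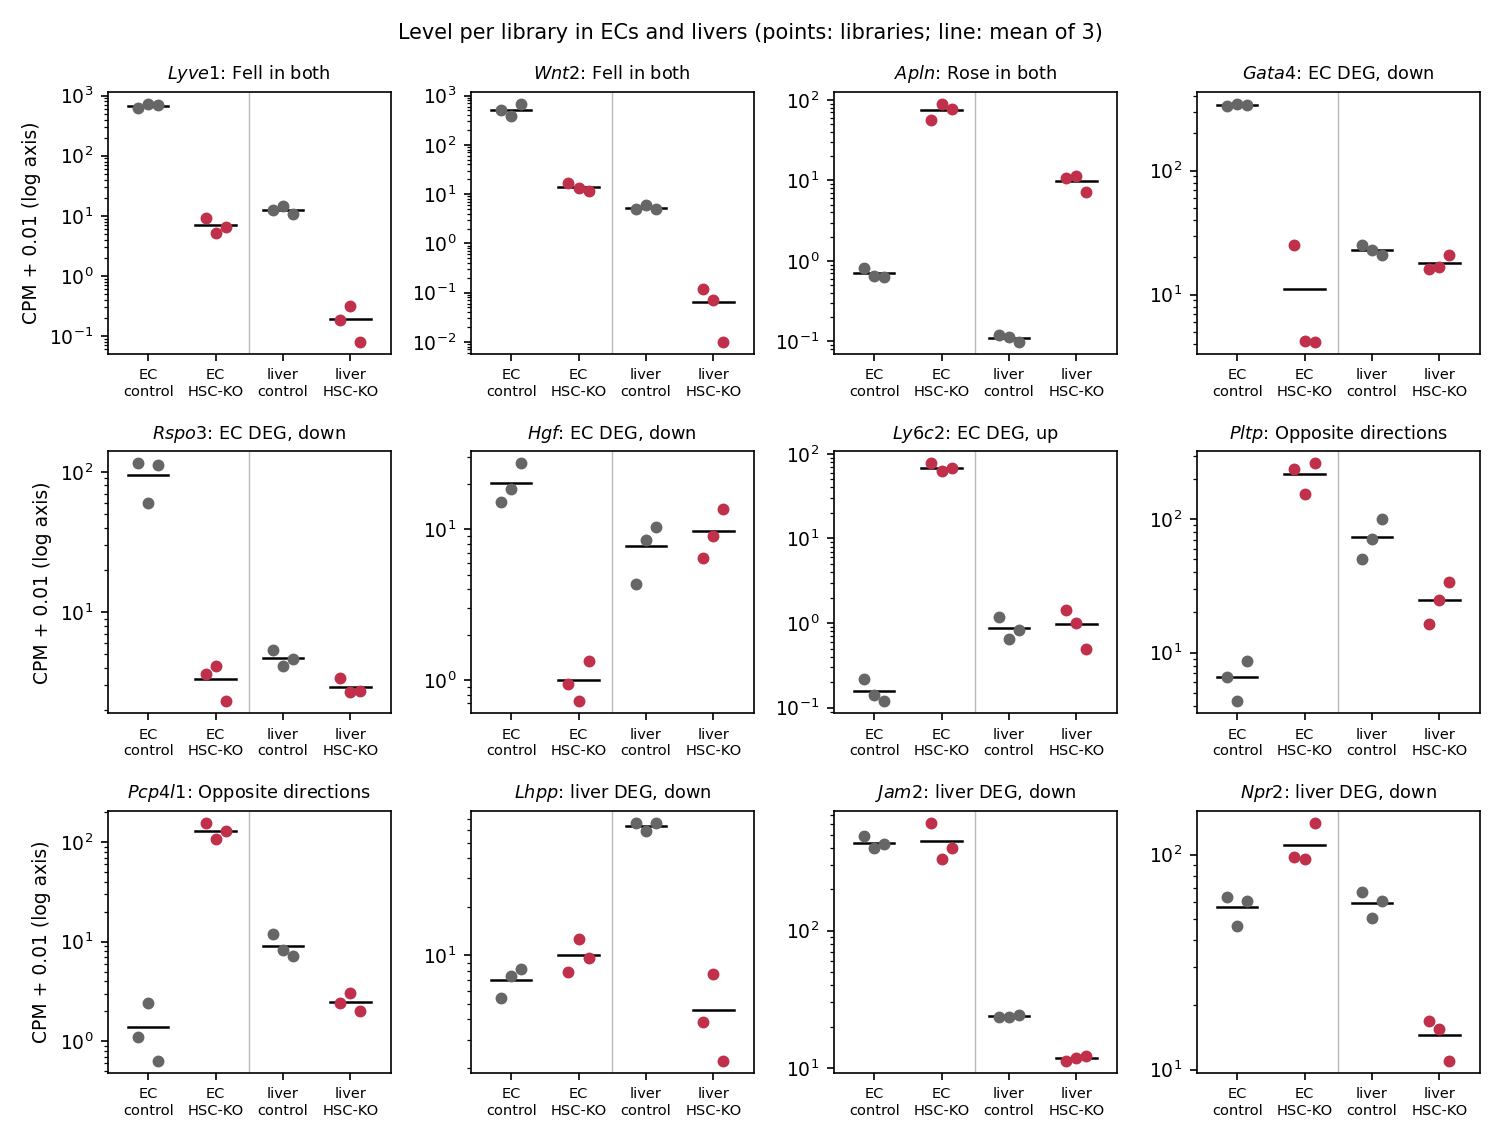
Levels of 12 genes in each library, as CPM + 0.01 on a log axis, with control libraries in grey, HSC-KO libraries in red and a line at the mean of 3. Lyve1, Wnt2 and Apln are DEGs of both in the same direction, Gata4, Rspo3, Hgf and Ly6c2 are DEGs of ECs alone, Pltp and Pcp4l1 go in opposite directions, and Lhpp, Jam2 and Npr2 fall in livers alone.

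The EC DEGs with a called difference and no liver call, 523 higher and 383 lower, are described next. They were chosen for a liver change that was not called and lay apart from the EC change, which largely sets their liver values near 0. Those higher in ECs had a median log2 fold change of 2.59 in ECs (2.57 with bounds) and 0.03 in livers, and those lower had -2.09 and -0.01. Of the 893 tested in livers, 659 had a liver log2 fold change under 0.5 in size, and 459 had the sign of the EC change against 434 with the other sign. Their levels were the nearer to those of liver: the median ratio of the EC level to the liver level, taken in the group where the gene was higher, was 2.87 for those that rose and 1.90 for those that fell, beside 10.7 and 14.7 for DEGs of both.

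The genes of this class with the greatest differences were of varied function. Aass, a gene of lysine breakdown (chr6:23072173-23132986), was at 219, 243 and 243 CPM in control ECs and 0.615, 0.670 and 0.758 CPM in HSC-KO ECs. In livers, where hepatocytes also express it, it was at 182, 338 and 292 CPM in control mice and 385, 502 and 312 CPM in HSC-KO mice. The EC libraries of the groups lay apart and the liver libraries overlapped, and the log2 difference was -8.95 (SE 0.38, edgeR BH-adjusted p = 3.4e-07). Ackr4, a scavenging chemokine receptor, fell by 8.40 in ECs with a liver log2 fold change of -0.18, Gpc1, a glypican, by 8.63 with 0.18, and Rerg, a small GTPase gene, by 8.15 with 0.09. Rasgef1b, named by the same rule, had control EC levels of 0.561, 0.323 and 40.2 CPM, and its log2 difference was -9.13 and ranged from -9.80 to -4.21 over the fits without 1 library. Its call was lost in 9 of 12 of them, those without an HSC-KO EC or a liver library. Ly6c2, a paralog of Ly6c1 that may share reads with it, rose by 8.82 in ECs (SE 0.28) from 0.109 to 0.207 CPM in control libraries to 62.1 to 77.0 CPM in HSC-KO libraries, while all 6 liver libraries lay between 0.487 and 1.42 CPM. Tmem26 rose by 8.31 in ECs with a liver log2 fold change of -1.11, and Slc28a2 (a nucleoside transporter) and Sybu by 9.82 and 9.52 with 0.71 each. Fam107a and Rbp7, a retinol-binding protein gene of capillary ECs, had no count in control ECs and were at least 404-fold and at least 319-fold higher in HSC-KO ECs. Their levels were at most 1.27 and 0.228 CPM in any liver library.

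Slc40a1, the iron exporter ferroportin, and genes of the interferon response were among the DEGs of ECs with a called difference. Slc40a1 fell in ECs from 175, 153 and 122 CPM to 15.6, 2.68 and 1.57 CPM (log2 fold change -4.50, SE 0.85), and in livers it was at 101, 153 and 130 CPM and 97.9, 93.5 and 99.5 CPM (log2 fold change -0.40, SE 0.16). The log2 difference of -4.06 was lost without liver control replicate 1 or 3. Slc40a1 is a member of the Kupffer cell list given further on, and hepatocytes are known to express it too. Of 12 interferon response genes tested in ECs, 7 rose there, 1 rose in livers, and 4 had a called difference above 0. The shares over all genes were 7.68%, 1.03% and 3.88%. The list medians were 1.68 in ECs and -0.01 in livers. The 4 called differences became 2 to 5 without 1 library, and 9 with libraries scaled by their total counts alone. The liver call, that of Rsad2, was lost without control replicate 1, 2 or 3 or HSC-KO replicate 1. Irf7, a transcription factor of the interferon response, was at 121, 117 and 115 CPM in control ECs and 445, 747 and 672 CPM in HSC-KO ECs, and in livers at 47.9 to 54.5 CPM and 20.8 to 39.7 CPM. Its log2 fold change was 2.40 in ECs and -0.62, not called, in livers, and the log2 difference was 3.06 (SE 0.35). The differences of Isg15 (1.89) and Ifit1 (1.94) were smaller, and that of Isg15 was lost in 7 of 12 fits without 1 library.

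The share of EC DEGs that were liver DEGs too was higher where the EC level was more than 10 times the liver level than below that ratio, though it did not rise at every step. Among EC DEGs that fell, 9.7% of the 248 with a lower level in ECs than in livers were liver DEGs in the same direction, 5.2% of the 404 with a ratio of 1 to 10, 16.7% of the 156 with a ratio of 10 to 30, and 39.3% of the 84 with a ratio over 30. The median liver log2 fold change went from -0.09 to -0.16, -0.60 and -1.63 over these classes, while the EC median stayed between -1.67 and -2.10. Among those that rose, the shares were 5.5% of 236, 8.9% of 485, 20.5% of 215 and 18.6% of 102, the liver medians 0.09, 0.26, 0.66 and 0.75, and the EC medians 2.16 to 2.44. The share with a called difference fell from 76.7 to 40.2% for those that rose and from 54.4 to 11.9% for those that fell. The ratio was taken in the group where the gene was higher and uses the libraries that give the fold changes, so the change itself partly sets the class, and these are descriptions without a test. The reference for a gene confined to ECs is given by the pan-endothelial genes, whose median ratio was 31.9 in control mice and 24.9 in HSC-KO mice, and by the sinusoidal genes, with 34.2 in control mice and a range from 11.7 for Tfec to 2410 for Dnase1l3. The pan-endothelial list itself had 1 of 12 members higher in ECs, near the 7.68% of all genes. In livers 1 was higher (Sox18, lost in 5 of 6 fits), beside 1.03% of all genes. The list medians were 0.25 and 0.50, and 7 and 8 members had an unadjusted p below 0.05 in edgeR. The summed level was 9848 to 10440 CPM in control and 10260 to 10910 CPM in HSC-KO ECs. In livers it was 277 to 327 CPM and 351 to 432 CPM, without overlap.

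**Figure D3:**
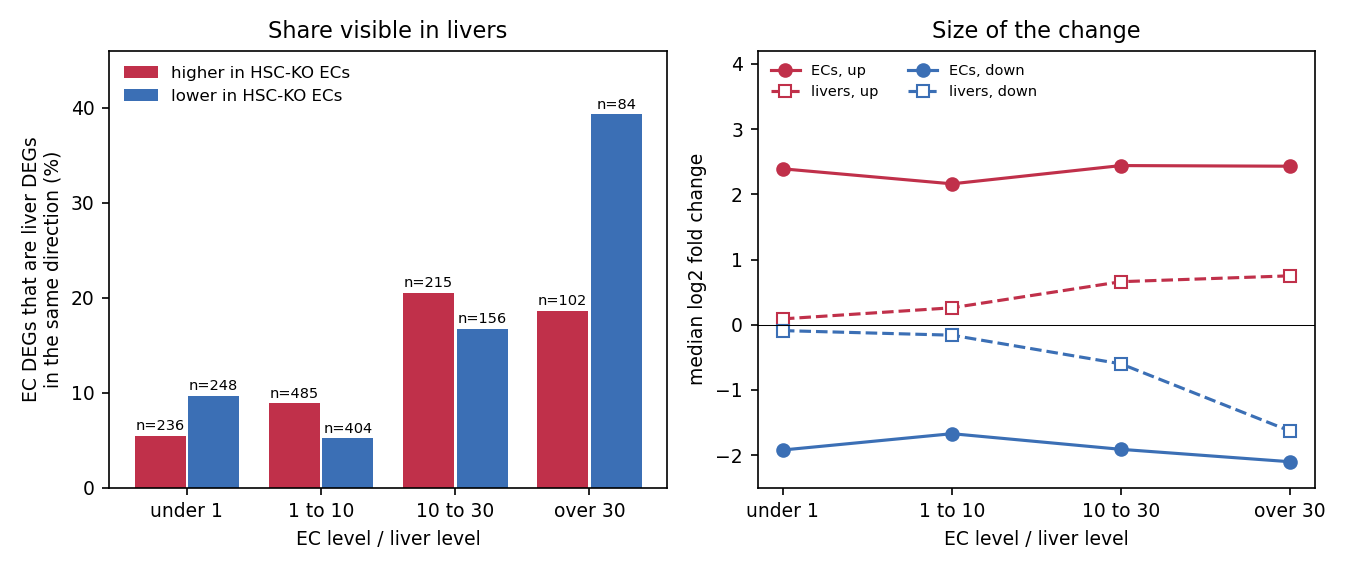
EC DEGs tested in livers, grouped by the ratio of the EC level to the liver level in the group where the gene was higher. The left panel gives the percent that were liver DEGs in the same direction with the number of genes per class, up to 39.3% of those that fell with a ratio over 30, and the right panel the median log2 fold change in ECs (filled) and livers (open), where the EC medians stay level and the liver medians move away from 0.

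In 13 genes the ECs and the livers changed in opposite directions, 11 of them higher in ECs and lower in livers, and the log2 difference was called in each. Pltp, the phospholipid transfer protein gene (chr2:164839518-164857711), was at 6.54, 4.30 and 8.70 CPM in control ECs and 237, 156 and 262 CPM in HSC-KO ECs (log2 fold change 5.06, SE 0.34). In livers it was at 50.3, 71.2 and 99.4 CPM in control mice and 16.4, 24.9 and 33.6 CPM in HSC-KO mice (log2 fold change -1.56, SE 0.32). Neither pair of groups overlapped, and the log2 difference was 6.66 (SE 0.52, edgeR BH-adjusted p = 3e-05). Pcp4l1 (chr1:171173262-171196268) was at 1.09, 2.43 and 0.625 CPM in control ECs and 156, 107 and 129 CPM in HSC-KO ECs, and at 11.8, 8.25 and 7.25 CPM in control livers and 2.43, 3.03 and 1.99 CPM in HSC-KO livers. Its log2 fold changes were 6.58 and -1.87, and its log2 difference was 8.49 (SE 0.61).

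The other genes higher in ECs and lower in livers were Csf2rb, the common beta chain of cytokine receptors (5.55 and -1.12), Rcan2, an inhibitor of calcineurin (6.11 and -2.43), Pyhin1 (3.64 and -1.18), Fam129a (1.66 and -1.41), Satb1, a chromatin organiser (3.16 and -2.07), Csf3r, the receptor of granulocyte colony-stimulating factor (5.99 and -1.52), Tbx3, a transcription factor of pericentral hepatocytes (2.88 and -3.05), Tlr5 and Fbxl21. Tlr5 and Fbxl21 had no counts in control ECs and were at least 3.91-fold and at least 10.1-fold higher in HSC-KO ECs, at no more than 0.562 CPM. In Tbx3 too the EC level was low, at 0.276 to 1.10 CPM in HSC-KO ECs against 23.2 to 34.4 CPM in control livers. Art4 and Tbc1d30 were lower in ECs and higher in livers, with -4.18 and 1.18 for Art4 and -1.29 and 1.59 for Tbc1d30. The liver calls of this class were weak: those of Pyhin1, Fam129a and Satb1 were lost in every fit without 1 liver library, those of Pltp, Art4 and Tlr5 in 5 of 6, and those of Rcan2 and Csf3r in 4 of 6. Tbx3 and Tbc1d30 kept their liver calls in all 6 of these fits, and Pcp4l1 in all but that without HSC-KO replicate 1, but the EC calls of Tbx3 and Tbc1d30 were lost in 5 and 4 of the 6 fits without 1 EC library, and that of Tlr5 in all 5 in which it could be tested. Fam129a, Satb1, Csf3r, Tlr5, Fbxl21 and Tbc1d30 were named after their values were seen, to complete the 13.

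In livers, 38 DEGs were not called in ECs and had a called difference, 6 higher and 32 lower, and 5 of the 38 had too few counts in ECs to be tested. Lhpp, a phosphatase gene (chr7:132610638-132706420), was at 66.1, 59.0 and 66.3 CPM in control livers and at 3.86, 7.69 and 2.20 CPM in HSC-KO livers (log2 fold change -3.80, SE 0.43). ECs had 5.44, 7.42 and 8.24 CPM in control mice and 7.83, 12.7 and 9.56 CPM in HSC-KO mice, which overlapped, and the log2 difference was 4.35 (SE 0.53, edgeR BH-adjusted p = 0.0005). Nxpe2 fell by 3.50 in livers with an EC log2 fold change of 0.61. Vnn1, a pantetheinase gene of hepatocytes, fell by 3.15 in livers and was at or under 0.0849 CPM in every EC library. Of the genes that rose in livers, Col6a2, a microfibrillar collagen gene, was at 8.27, 6.62 and 8.71 CPM in control livers and 24.7, 27.4 and 18.8 CPM in HSC-KO livers, against at most 1.48 CPM in ECs. Pcolce, an enhancer of collagen processing, rose by 1.18 in livers with -0.36 in ECs, and Gas2 by 1.57 with 0.00. The liver call of Pcolce was lost in 5 of 6 fits without 1 liver library, and the called differences of Col6a2 and Gas2 were each lost in 10 of 12 fits without 1 library.

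Some genes of this class were well expressed by sorted ECs. Npr2, the receptor of C-type natriuretic peptide (chr4:43631935-43651244), was at 63.5, 46.4 and 60.7 CPM in control ECs and 97.9, 95.6 and 141 CPM in HSC-KO ECs. In livers it fell from 66.8, 50.8 and 60.9 CPM to 16.9, 15.5 and 11 CPM. The groups lay apart in both tissues and in opposite order, with log2 fold changes of 0.97 in ECs (SE 0.20), just under the threshold of 1, and -2.04 in livers (SE 0.19), and a log2 difference of 3.05 (SE 0.30, edgeR BH-adjusted p = 0.00014). Jam2, an adhesion molecule of EC junctions, was at 334 to 610 CPM in all 6 EC libraries with overlapping groups, and fell in livers from 23.4, 23.5 and 24.3 CPM to 11.3, 11.8 and 12.2 CPM. Its log2 difference of 1.08 (SE 0.28) was lost in 11 of 12 fits without 1 library. Adcy4, an adenylate cyclase gene, was at 66.8 to 101 CPM in ECs and fell by 1.22 in livers, a call lost in 3 of 6 fits without 1 liver library, while its difference of 1.28 was called in all 12 fits. Ptgs1, the gene of cyclooxygenase 1, fell by 1.51 in livers with -0.33 in ECs, and its called difference of 1.22 was lost in 8 of 12 fits. These 4 genes were named after their values were seen, for their level in ECs.

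Pericentral hepatocyte genes fell together in livers, and 8 of the 20 had too few counts in ECs to be tested. In livers 16 of 20 fell and none rose, with a median of -2.51, and over the fits without 1 liver library the number was 10 to 14. In ECs, 4 of 12 fell and 2 rose, and over the fits without 1 EC library 2 to 3 fell and 0 to 2 rose, beside 6.01% lower and 7.68% higher of all genes. Glul, which encodes glutamine synthetase (chr1:153899944-153909723), was at 884, 558 and 712 CPM in control livers and 25.1, 18.4 and 23.1 CPM in HSC-KO livers. In ECs, which are known to express it, it was at 170, 228 and 163 CPM in control mice and 91.8, 63.6 and 50.6 CPM in HSC-KO mice. It fell by 5.01 in livers (SE 0.24) and by 1.45 in ECs (SE 0.24), and with a log2 difference of 3.61 (SE 0.37, edgeR BH-adjusted p = 0.00016) it was 1 of the 2 DEGs of both whose called difference was larger in livers. Oat, an aminotransferase gene, fell by 3.39 in livers, and its EC log2 fold change of -0.82 had an edgeR BH-adjusted p of 0.0035 without reaching the fold threshold, while its liver call was lost in 4 of 6 fits. Axin2, a direct target of Wnt signals, fell by 2.74 in livers, with 0.896 to 2.93 CPM and a log2 fold change of 0.00 in ECs, but its liver call was lost in 5 of 6 fits and its called difference in 9 of 12. Slc1a2, a glutamate transporter, fell from 169, 142 and 142 CPM to 0.107, 0 and 0 CPM in livers and was at or under 0.0854 CPM in ECs, so that its fitted log2 difference of 10.65 depends on the prior count, and its called difference was lost in 5 of 12 fits. Cyp2e1 fell by 2.81 in livers where control mice had 4569 to 5294 CPM, and had at most 1.39 CPM in ECs. Of the called differences of this list, 5 were above 0 and 2 below, those of Rnf43 and Nkd1, both Wnt feedback genes. Nkd1 fell by 2.79 in ECs with -0.55, not called, in livers, and its difference of -2.20 was lost in 7 of 12 fits. Rnf43 fell by 1.41 in livers and had too few counts in ECs for a test of its own there, at 0.122 to 0.372 CPM in control ECs and no count in HSC-KO ECs, where its level was at least 5.58-fold lower. Periportal hepatocyte genes had medians of 0.98 in livers, where 2 of 14 rose, and -0.62 in ECs, where 1 of 11 rose, beside 1.03% and 7.68% of all genes. The liver count was 0 without control replicate 3, 1 without control replicate 1 or 2, 4 without HSC-KO replicate 2 or 3, and 6 with an Xist covariate.

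Genes of the basement membrane rose in ECs, and a few of them in livers. In ECs 9 of 14 rose, with a median of 1.42, in livers 3 rose, with a median of 0.92, and 4 had a called difference above 0. For all genes these shares were 7.68%, 1.03% and 3.88%. The liver count was 1 without control replicate 1 or 2, and 6 without HSC-KO replicate 3. Col4a1, a chain of collagen IV, was at 452, 379 and 394 CPM in control ECs and 1085, 1136 and 1157 CPM in HSC-KO ECs, and rose in livers from 55.2, 47.2 and 73.1 to 164, 226 and 138 CPM. Its log2 fold changes of 1.46 (SE 0.15) and 1.59 (SE 0.23) were not called different, and Col4a2 gave 1.38 and 1.43. Lamb1, a laminin chain, rose by 5.02 in ECs and 1.53 in livers, with a log2 difference of 3.53. Nid2 (nidogen 2) rose by 3.25 in ECs and had 0.91, not called, in livers. Col18a1 rose by 2.79 in ECs, from 0.543 to 1.56 CPM in control libraries to 5.44 to 10.3 CPM, whereas livers had 1166 to 1422 CPM in all 6 libraries (log2 fold change 0.09, SE 0.12). The fibrillar collagen and matrix list had 3 of 15 genes higher in livers and none lower, and 1 higher and 1 lower of 14 in ECs, with medians of 0.93 in livers and 0.10 in ECs, beside 1.03% of all genes higher in livers and 7.68% higher and 6.01% lower in ECs. The liver count was 1 without control replicate 1, and 2 without control replicate 2 or 3 or HSC-KO replicate 1. Of its members, Loxl2, a collagen crosslinking enzyme, fell by 1.58 in ECs with 0.22 in livers, a called difference of -1.76. Col1a1, Col1a2 and Col3a1 were at most 3.73 CPM in ECs and had log2 fold changes of 0.93, 0.85 and 1.18 in livers, none of which was called.

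**Figure D4:**
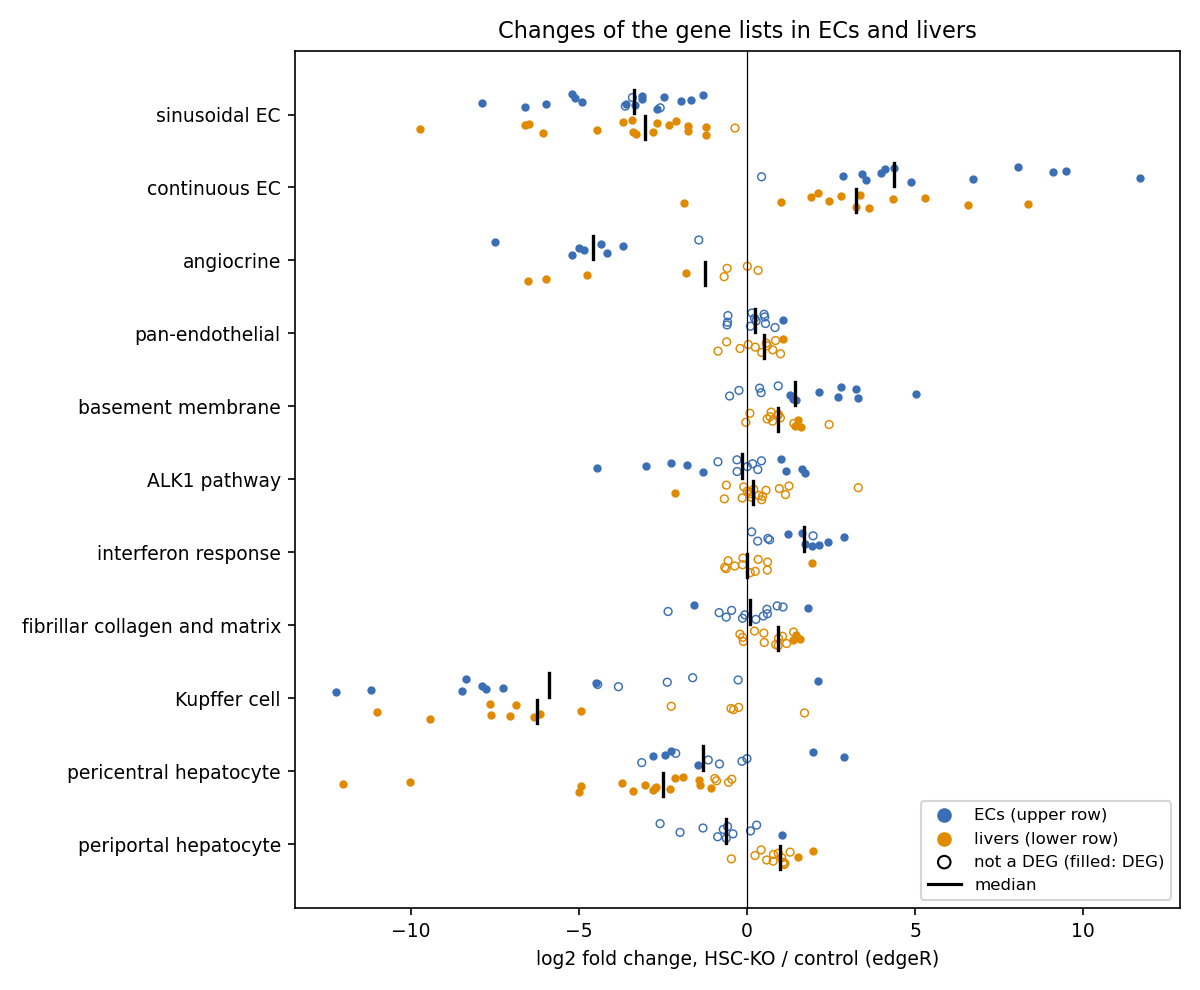
Log2 fold change (HSC-KO over control) of each gene of 11 lists in ECs (upper row, blue) and in livers (lower row, orange), filled for DEGs, with a bar at the list median. Sinusoidal genes lie at medians of -3.38 and -3.05 and continuous genes at 4.36 and 3.24, while the angiocrine median is -4.60 in ECs and -1.24 in livers and that of interferon response genes 1.68 and -0.01; fitted values of genes without counts in a group depend on the prior count.

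Markers of other cells moved in both tables. Of 14 Kupffer cell genes, 8 fell and 1 rose in ECs and 9 fell in livers, beside 6.01%, 7.68% and 1.45% of all genes. The list medians were -5.88 (-3.83 with bounds) in ECs and -6.24 (-6.22 with bounds) in livers. The summed level of the Kupffer cell list in ECs was 152 to 206 CPM in control and 13.7 to 24.2 CPM in HSC-KO libraries. In HSC-KO ECs 6 members were at or under 3 counts in each library. In livers the sum was 459 to 703 CPM and 188 to 382 CPM. Most of the sum in control ECs was Slc40a1, at the levels given above, and a sum without it was not computed. The member that rose was Nr1h3, the gene of the nuclear receptor LXR-alpha, by 2.11 in ECs with -0.25 in livers. Clec4f, a receptor restricted to Kupffer cells, was at 7.43, 7.96 and 8.05 CPM in control ECs with no count in HSC-KO ECs, at least 212-fold lower, and at 104, 192 and 135 CPM in control livers and 0.0557 to 0.286 CPM in HSC-KO livers. Some of the DEGs of both are therefore genes of this list, among them Cd5l, Clec4f, Vsig4 and Timd4, although the ECs were sorted as CD45-. Of 9 macrophage and monocyte genes tested in ECs, 5 fell and 1 rose, beside 6.01% and 7.68% of all genes. The gene that rose was Ly6c2, the paralog of the endothelial Ly6c1. In livers 5 of 13 fell and 1 rose, beside 1.45% and 1.03% of all genes. The number that fell was 3 without control replicate 1, and 1 without control replicate 2 or 3 or HSC-KO replicate 1 or 2. The summed level of this list was 51.9 to 70.6 CPM in control ECs and 72.3 to 83.5 CPM in HSC-KO ECs. Without Ly6c2, left out after its values were seen, it was 51.8 to 70.4 CPM and 6.49 to 10.1 CPM. Among those that fell was C1qa, which fell by 3.58 in ECs and 1.25 in livers, with a liver call lost in 5 of 6 fits without 1 library. Hepatocyte genes summed to 70.8 to 130 CPM in control ECs and 49.0 to 76.2 CPM in HSC-KO ECs. Apob, whose product carries lipids out of hepatocytes, accounted for the 1 hepatocyte gene that fell in ECs, by 2.62 from at most 1.10 CPM, a call lost in 5 of 6 fits without 1 EC library. Of the stellate and mural list, 2 of 14 fell in ECs and 1 of 15 (Cygb) rose in livers, beside 6.01% and 1.03% of all genes, with medians of -0.43 and 0.42. The EC count was 0 without control replicate 1, 4 without control replicate 3 and 1 without any other EC library, and the liver call of Cygb was lost in 5 of 6 fits. The part of these cells in the changes described above was not tested.

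Of 14 arterial EC genes, 5 rose and 1 fell in ECs and 3 rose in livers, with medians of 0.93 and 0.64, beside 7.68% higher and 6.01% lower of all genes in ECs and 1.03% higher in livers. The liver count was 5 without HSC-KO replicate 3 and with an Xist covariate, and 2 without any other liver library. Sema3g, a semaphorin gene, rose by 5.75 in ECs and 4.27 in livers. Eln (elastin) and Fbln5 (fibulin 5), genes of elastic fibres, rose by 3.41 and 3.27 in ECs, had log2 fold changes of 0.34 and 1.79 in livers, and had called differences of 3.11 and 1.52. Gja4, which encodes connexin 37, was the member that fell in ECs, by 2.06. With 1 library left out at a time, the liver call of Sema3g was lost in 5 of 6 fits, the EC call of Gja4 in 4 of 6 and the called difference of Fbln5 in 10 of 12.

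The remaining lists had few DEGs. In edgeR, no cell cycle or immediate early gene was a DEG of ECs or livers: of 16 cell cycle genes, 4 in ECs and 3 in livers had an unadjusted p below 0.05, and of 12 immediate early genes 3 and 2 did. DESeq2 called 0 and 1 of the cell cycle genes and 1 and 1 of the immediate early genes. Of the listed iron genes, which do not include Slc40a1, Hmox1 fell in livers by 1.58 with -0.86 in ECs, where none of the 9 tested was called (3 with an unadjusted p below 0.05, 0 in DESeq2). Spp1 of the cholangiocyte list fell by 1.37 in livers, and the erythroid Hba-a2 fell by 1.95 in ECs. These calls were lost in 5 of 6 fits with 1 library left out for Hmox1, in 3 of 6 for Spp1 and in 4 of 6 for Hba-a2.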

How the data were processed

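RNA-seq counts of 6 EC and 6 liver libraries were compared, 3 per group. The authors aligned reads to mm10/GRCm38 with HISAT2 and deposited raw featureCounts counts per gene; versions, annotation and strand setting are not given in the sources used here, so opposite-strand overlaps may share reads. Both tables hold 48820 entries, and 48337 symbols occur once in each.

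The authors' unit, counts, was kept. Fold changes, standard errors (SE, the log2 value over the root of F) and differences come from edgeR 4.0.16 in R 4.3.3 (quasi-likelihood, TMM scaling, filterByExpr at 10 counts and 15 in total, Benjamini-Hochberg adjustment over all genes tested). ECs and livers were fitted apart, and the difference over the 12 libraries. CPM used TMM factors per table. The study's DEG thresholds were used, and DESeq2 1.42.0 was an alternative, as were limma 3.58.1, other scalings, filters, a fold threshold in the test, a sex covariate, a replicate block and leaving out each library. Fits were tested on simulated data.

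Named genes are those of 23 lists (289 genes) and, per class and direction, up to 5 with the largest values among genes at a mean log2 CPM of at least 3, without overlap between groups in the tissue that names the direction, and without a library at 0 where another of its group had 100 counts or more. Predicted genes were not named, and some list members are not reported here singly. The members and lists were chosen with earlier results of these data known. The labels count replicates as separate samples; the study states that they are biological. Coordinates are from GENCODE vM21 (96.4% of symbols matched).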

Additional observations from a re-analysis of the deposited data

Results flagged for a closer look

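The changes in ECs and in livers differed by the test of the difference itself for 1232 of 18875 genes (edgeR quasi-likelihood test over 12 libraries). The values below are log2 differences, EC change minus liver change, of the named genes among them, those named after their values were seen included, that had counts above the detection limit in at least 1 EC group. For Fam107a, Rbp7, Vnn1, Rasgef1b, Rnf43, Hand2, Tlr5 and Fbxl21, each with an EC group at or under 3 counts per library, the size depends on the prior count, and so does that of Slc1a2, near 0 in HSC-KO livers and in ECs.

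Of the ligands and the ALK1 pathway, Gdf2 had -3.82, Acvrl1 1.33, Acvr2a 1.08, Smad5 1.32, Smad9 -5.49, Smad7 -1.83, Id2 -2.80 and Atoh8 1.66. Of the EC lists, Gata4 had -4.52, Vwf 2.35, Plvap 1.88, Ly6c1 3.87, Col15a1 7.62, Igfbp3 6.00, Eln 3.11 and Fbln5 1.52. The angiocrine genes were Rspo3 at -4.12, Bmp6 at -1.83, Hgf at -4.65 and Dkk3 at -6.86.

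Among matrix and stellate genes the differences were 3.53 for Lamb1, 1.19 for Lamc1, 2.38 for Nid2, 2.75 for Col18a1, -2.37 for Col6a2, -1.76 for Loxl2 and -7.35 for Hand2. Kupffer cell and macrophage genes gave -4.06 for Slc40a1, 2.39 for Nr1h3, 6.09 for Cxcl13, -2.29 for C1qa, -2.77 for C1qb, -1.64 for C1qc and 8.72 for Ly6c2. Hepatocyte and iron genes gave 3.61 for Glul, 2.61 for Oat, 2.78 for Axin2, 5.96 for Tbx3, -5.34 for Rnf43, 10.65 for Slc1a2, -2.20 for Nkd1, -1.12 for Heph and -2.76 for Apob. The interferon response genes were Isg15 at 1.89, Ifit1 at 1.94 and Irf7 at 3.06. The called differences of Hand2, Cxcl13, Nkd1 and Slc1a2 were lost in 11, 10, 7 and 5 of the 12 fits without 1 library.

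Outside the lists, the genes that rose in ECs had 6.71 (Csf2rb), 10.14 (Fam107a), 8.49 (Pcp4l1), 6.66 (Pltp), 4.86 (Pyhin1), 10.25 (Rbp7), 8.57 (Rcan2), 9.14 (Slc28a2), 8.84 (Sybu) and 9.45 (Tmem26). Those that fell in ECs had -8.95 (Aass), -8.18 (Ackr4), -5.31 (Art4), -8.78 (Gpc1), -9.13 (Rasgef1b) and -8.20 (Rerg). Those that changed in livers had -1.53 (Gas2), 4.35 (Lhpp), 4.16 (Nxpe2), -1.50 (Pcolce) and 7.95 (Vnn1). Of the genes named after their values were seen, Csf3r had 7.51, Fam129a 3.11, Fbxl21 9.55, Satb1 5.26, Tbc1d30 -2.84, Tlr5 8.11, Npr2 3.05, Jam2 1.08, Adcy4 1.28 and Ptgs1 1.22.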

How the results depend on the processing

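The 7 counts of genes moved most with a test against a log2 value of 1 (edgeR's glmTreat), which gave 481 called differences, 1096 EC DEGs, 142 liver DEGs, 81 DEGs of both in the same direction, 0 in opposite directions, 397 EC DEGs without a liver call and with a called difference, and 9 such liver DEGs. DESeq2 gave 1959 called differences, 1206 of them shared with the 1232 of edgeR, 794 liver DEGs, 26 DEGs of both in opposite directions and 105 liver DEGs without an EC call and with a called difference. Without a filter on low counts, and with at least 10 counts in every library, 7 genes were DEGs of both in opposite directions. Under limma, DESeq2's size factors, library size alone, the Xist covariate, and without erratic zeros or genes overlapping on the same strand (this last was chosen after seeing the data), all 7 counts stayed within 1.5 times, as did the 5 that TMM within each table bears on.

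With 1 library left out, the ranges were 936 to 1541 called differences, 1664 to 2496 EC DEGs, 188 to 451 liver DEGs, 112 to 232 DEGs of both in the same direction, 3 to 14 in opposite directions, 672 to 1152 EC DEGs and 10 to 37 liver DEGs without a call in the other tissue and with a called difference. The liver DEGs and the DEGs of both in the same direction were 266 and 145 without liver control replicate 1, 188 and 113 without control replicate 2, 193 and 119 without control replicate 3, and 191 and 112 without HSC-KO replicate 1. The opposite changes were 6, 6, 3 and 3 without these libraries and 7 without HSC-KO replicate 2, and the liver DEGs with a called difference were 21, 12, 10 and 16 without the first 4. These fits have fewer samples. The log2 difference of Stab2, 0.75 and not called, was -1.10 and called without EC HSC-KO replicate 1, and between 0.68 and 1.2 without any other library.

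Same-numbered libraries of the groups correlated by 0.103, 0.117 and 0.033 in ECs and 0.015, 0.049 and 0.013 in livers. Different-numbered ones gave -0.13 to 0.023 in ECs, all below the same-numbered values, and -0.046 to 0.025 in livers. The main fits took no pairs, and whether the numbers stand for pairs is not known. A replicate block gave 271 liver DEGs, 144 DEGs of both in the same direction and 6 in opposite directions, and 1100 called differences. The alternatives were compared for 100 genes with a called difference, among them all 38 liver DEGs of that class, also those not named above. Of these 100 genes, 41 were called under every alternative and 55 under every one but glmTreat. Depth limits genes near 3 counts per library, and intervals were not computed for them.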
